A study of Arabidopsis thaliana with 8 samples.

Results

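The comparison sets 2 lines placed on the lime-tolerant side of the study against each other, a laboratory calcicole and a wild ecotype labelled high soil pH (hereafter the wild high-pH ecotype). Their 4 arrays, of the 8 in the series, were chosen by their titles. They are the lab calcicole at 1 and 12.5 mM CaCl2 and the wild ecotype at the same doses, paired by dose. The 4 other arrays hold a lab calcifuge and a wild ecotype labelled low soil pH (the wild low-pH ecotype) at 1 and 12.5 mM, and entered the fits as described with each result. All arrays measured total RNA of whole Arabidopsis thaliana plants on the Affymetrix ATH1 array, which reads each transcript with a set of short probes, the probe set. Plants of every group stood in a growth room at 22 °C under 10 h days on sterile sand, with Long Ashton nutrient solution at 0.5 strength. The labels give neither the age nor the accession or genotype of any line, nor how many plants an array pools. There was 1 array per line and dose. The tests therefore set each difference against departures of lines from a shared effect of dose, and not against the spread between plants.

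Calcicole plants grow on lime-rich, alkaline soil, and calcifuge plants avoid it. Lime soils combine abundant calcium with poorly soluble iron and phosphate, and acid soils expose roots to protons and aluminium. A line can hold the same place in this classification as another and still carry many inherited differences in defence, secondary metabolism and growth, because Arabidopsis lines vary in all of these.

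The lab calcicole and the wild high-pH ecotype differed in 1277 of 13647 probe sets tested (9.36%), by limma with a Benjamini-Hochberg adjusted p under 0.05. Of these, 619 (4.54%) were higher and 658 (4.82%) were lower in the lab calcicole. The median size of a called difference was 1.36 on the log2 scale, or 2.57-fold, and 223 reached 4-fold, 124 of them higher and 99 lower. All 1277 had the same sign at 1 and at 12.5 mM, and 794 of them reached 2-fold at both doses. The calls rest on the mean of these 2 differences, and disagreement between doses adds to the error. Agreement in sign is therefore largely built into the calls. Over every probe set tested, 934 differed at least 2-fold in the same direction at both doses, against 19 in opposite directions. The 2 differences per probe set, 1 from each dose, correlated with r = 0.67 across probe sets. Probe sets are no independent replicates, and they share the arrays' scaling.

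**Figure D1:**
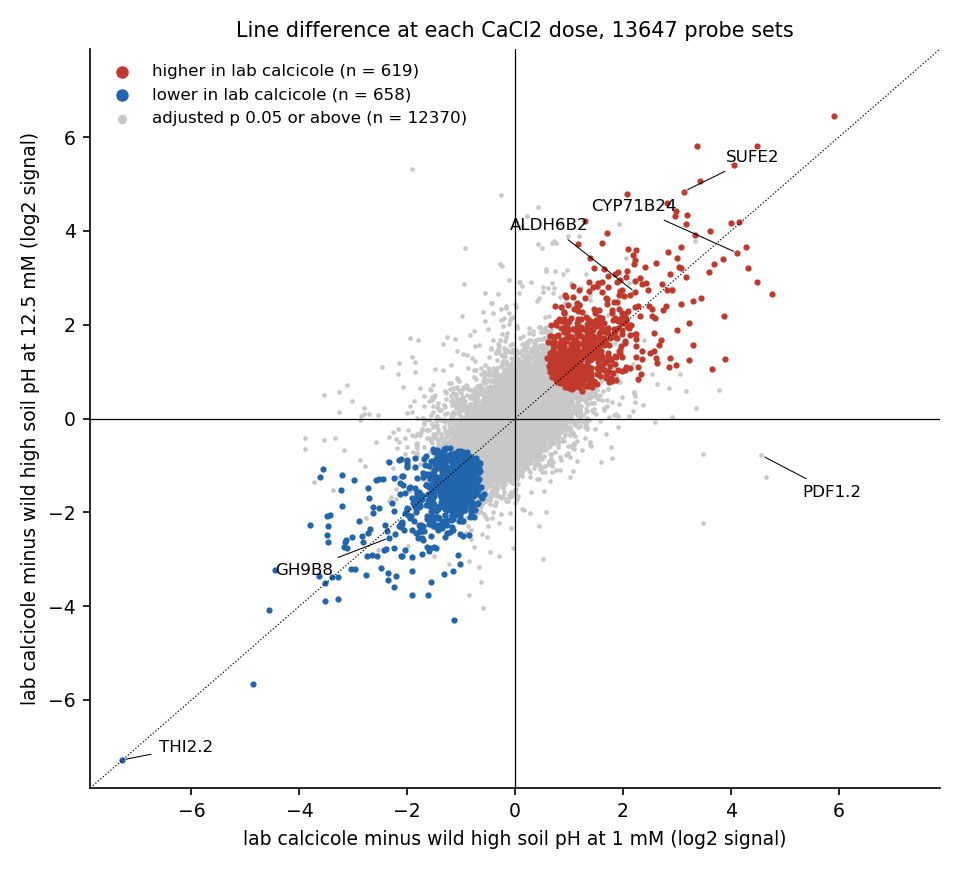
Difference between the lab calcicole and the wild high-pH ecotype at 1 mM (horizontal) and at 12.5 mM CaCl2 (vertical), in log2 signal, for the 13647 probe sets tested; the dotted line marks equal differences at both doses. The 619 higher and 658 lower probe sets lie to the upper right and lower left of the centre, and PDF1.2 is an example of a gene with opposite signs at the 2 doses.

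Among these 4 arrays, those of 1 line were more alike than those of different lines. The 2 lab calcicole arrays correlated with each other at r = 0.917 and the 2 wild high-pH arrays at 0.948, on log2 signal across probe sets. Between the lines r was 0.875 at 1 mM and 0.839 at 12.5 mM, and 0.819 and 0.855 across doses. The median signal of all 8 arrays lay between 42.4 and 47.8. The count of calls depended on each of the 4 arrays: it was 250 without the lab calcicole at 1 mM, 182 without the lab calcicole at 12.5 mM, 579 without the wild high-pH ecotype at 1 mM and 106 without that line at 12.5 mM. In each of these fits the lone array left for a line was assumed to vary like the other lines, and no probe set of the 1277 changed sign. The 1277 were selected with all 4 arrays in the fit, which favours a kept sign.

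Among probe sets that name 1 gene, the 12 most raised in the lab calcicole included UGT78D1 and CYP71B24, but not CYP71B23. UGT78D1, which adds rhamnose to flavonols, had signals of 122 and 81.7 in the lab calcicole at 1 and 12.5 mM, against 3.89 and 4.22 in the wild high-pH ecotype. Both wild values sat near the bottom of the array's range, and the lines did not overlap (log2 difference 3.96 ± 0.45, SE; adjusted p = 0.00533, or 0.0582 without the wild array at 12.5 mM). CYP71B24, a cytochrome P450 monooxygenase, had 202 and 207 in the lab calcicole, against 9.29 and 15.6 in the wild line. Its values separated by line at both doses (3.83 ± 0.35; adjusted p = 0.00317). CYP71B23, a relative of CYP71B24, had 830 and 474 in the lab calcicole, against 290 and 64.9 in the wild line (2.16 ± 0.36; adjusted p = 0.0163).

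SUFE2, an activator of the plastid cysteine desulphurase that supplies sulfur for iron-sulfur clusters, had 183 and 143 in the lab calcicole, against 18.7 and 2.56 in the wild line. All lab calcicole values were higher (3.99 ± 0.57; adjusted p = 0.0112), and the adjusted p was 0.0642 or 0.0767 when the lab calcicole array at 1 or at 12.5 mM was left out. GLR2.7, a glutamate receptor-like channel of a family that carries cations, calcium among them, had 92.0 and 50.4 in the lab calcicole, against 4.01 and 2.48 in the wild line (3.63 ± 0.29; adjusted p = 0.00199). ALDH6B2, the mitochondrial methylmalonate semialdehyde dehydrogenase of valine breakdown, had 419 and 558 in the lab calcicole, against 87.4 and 84.4 in the wild line. Its signals were well above the bottom of the range in both lines and did not overlap (2.46 ± 0.22; adjusted p = 0.00291). Among genes with no symbol in the annotation used here, AT4G20480 (116 and 103 against 6.72 and 8.21) and AT1G05340 (355 and 272 against 26.5 and 14.7) were among the 12 most raised that name 1 gene. AT4G20480 kept its call under all 16 alternatives of the processing, and AT1G05340 under 11 of 15. The largest positive difference over all probe sets tested, 6.19, belonged to a probe set not paired with a single gene here.

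Other raised genes were chosen for their symbol after values were seen. PDC2, a pyruvate decarboxylase of the fermentation route, had 483 and 461 in the lab calcicole, against 94.9 and 99.5 in the wild line (2.25 ± 0.22; adjusted p = 0.00339). GAMMA-VPE, a protease that processes vacuolar proteins, had 4900 and 2680 in the lab calcicole, against 1200 and 845 in the wild line (1.84 ± 0.34; adjusted p = 0.0217). AER, which reduces reactive aldehydes and ketones, had 338 and 571 in the lab calcicole, against 96.2 and 119 in the wild line (2.02 ± 0.27; adjusted p = 0.009). FDH, the mitochondrial formate dehydrogenase, had 2380 and 2540 in the lab calcicole, against 1080 and 917 in the wild line, a log2 difference of 1.31. In all of these both lab calcicole arrays lay above both wild arrays.

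The largest difference in either direction, over all probe sets tested, was that of a gene lower in the lab calcicole. THI2.2, which encodes a thionin, a small antimicrobial peptide, had signals of 4.45 and 6.99 in the lab calcicole at 1 and 12.5 mM, against 1080 and 1470 in the wild high-pH ecotype. The lab calcicole values were near the bottom of the range and the wild values were among the high signals of their arrays (−7.28 ± 0.39; adjusted p = 0.00113). The low values sit near the pseudocount, and the fitted difference moved between −7.72 and −5.88 over the alternatives, and the call held in all of them. CSA1, a nucleotide-binding leucine-rich repeat receptor gene, had 14.7 and 7.83 in the lab calcicole, against 115 and 101 in the wild line (−3.05 ± 0.22; adjusted p = 0.00162).

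Several strongly lowered genes were still well detected in the lab calcicole. AT1G23130 had 134 and 153 in the lab calcicole, against 1700 and 1580 in the wild line (−3.50 ± 0.26), and AT2G43530 had 120 and 140, against 1070 and 855 (−2.86 ± 0.23). AT2G25450, which stands in a glucosinolate list written from general knowledge, had 274 and 250 in the lab calcicole, against 1860 and 1930 in the wild line (−2.85 ± 0.27; adjusted p = 0.00324). Chosen the same way as PDC2, SKU5, a cell-surface protein needed for directional root growth, had 60.7 and 22.4 in the lab calcicole, against 236 and 192 in the wild line (−2.44 ± 0.31; adjusted p = 0.00764). ETFBETA, a subunit of the flavoprotein that takes electrons from mitochondrial amino acid breakdown, had 31.9 and 58.3 in the lab calcicole, against 212 and 243 in the wild line (−2.33 ± 0.31; adjusted p = 0.009). It therefore ran opposite to ALDH6B2, an enzyme of the same mitochondrial routes. Of the 40 genes named for the size of their difference, 22 kept their call under every alternative, and none changed sign.

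**Figure D2:**
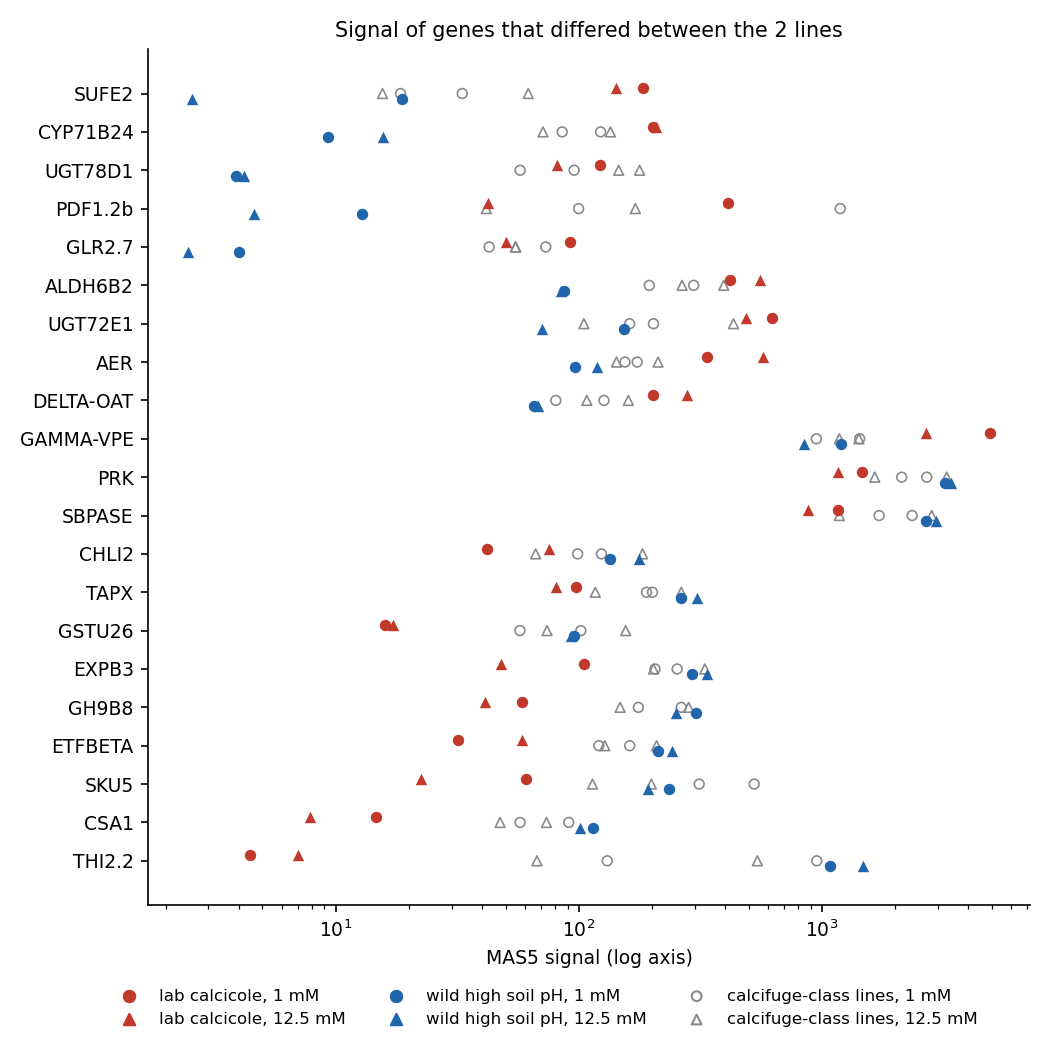
MAS5 signal, on a log axis, of 21 genes that differed between the lines; red is the lab calcicole and blue the wild high-pH ecotype, circles are 1 mM and triangles 12.5 mM CaCl2, and open grey symbols are the lab calcifuge and wild low-pH arrays. In each of these genes the 2 red symbols lie on one side of the 2 blue ones, THI2.2 being the widest apart.

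Genes of photosynthesis mostly had negative differences. Of the 4 members of a list of 23 nuclear photosynthesis genes that could be tested, only PRK was called lower, and all 4 had negative differences. Over all probe sets tested, 4.82% were called lower. PRK, the Calvin cycle phosphoribulokinase, had 1460 and 1160 in the lab calcicole, against 3220 and 3390 in the wild line (−1.34 ± 0.24; adjusted p = 0.0199). Both lab calcicole values lay below both wild values. The other members, RCA, LHCB4.1 and PSAE-1, had differences between −0.53 and −0.41, none past the test. The log2 signals of the 4 summed to 46.23 and 44.73 in the lab calcicole and to 48.11 and 48.39 in the wild line.

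A broader list of 32 nuclear genes of the light reactions and the Calvin cycle was drawn up from gene symbols after their values were seen, so it carries no test. It holds the 4 genes above again, with PRK among its calls. Its median difference was −0.75, against 0.01 over all probe sets tested. It held 30 negative differences, 7 of them called lower, where 4.82% of all probe sets were, and none called higher. SBPASE, the Calvin cycle sedoheptulose bisphosphatase, had 1170 and 880 in the lab calcicole, against 2690 and 2950 in the wild line (−1.47 ± 0.26; adjusted p = 0.0202). The other called members were CYTC6A, a thylakoid lumen cytochrome (−1.78), NdhL, a subunit of the chloroplast NDH complex (−1.42), TRXF2, a thioredoxin that switches Calvin cycle enzymes (−1.40), HCF101, which helps build photosystem I (−1.24), and LPA19, a photosystem II assembly factor (−1.16). In chlorophyll and tetrapyrrole synthesis, a list of 10 chosen the same way, the median was −0.87. Against the same 4.82%, 2 genes were called lower, the magnesium chelatase subunit CHLI2 (−1.41) and LIL3:2 (−1.16). The lab calcifuge minus wild low-pH difference was negative in these lists too. Its median was −0.39 in the list of 23, −0.46 in that of 32 and −0.40 in that of 10, against 0.02 over all probe sets tested. TAPX, the thylakoid ascorbate peroxidase, had 97.0 and 80.7 in the lab calcicole, against 263 and 306 in the wild line (−1.65 ± 0.29; adjusted p = 0.0197), and HPR, the hydroxypyruvate reductase of photorespiration, differed by −1.11. TAPX and HPR were chosen for their symbol among the calls after values were seen. In whole plants, fewer green cells and less RNA per cell cannot be told apart.

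Among the plastid's own genes, none of 69 was called, where 9.36% of all probe sets were, and their median difference was −0.17. It was 0.24 at 1 mM and −0.46 at 12.5 mM. From 1 to 12.5 mM the median change of these genes was −0.61 in the lab calcicole and 0.19 in the wild line. Their median standard error was 0.40, against 0.24 for all probe sets.

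The called genes among those that loosen or remodel the cell wall were lower in the lab calcicole. Of 9 expansins tested, proteins that loosen the wall during growth, 2 were called lower, where 4.82% of all probe sets were, and none higher, with a median of −0.57. EXPB3 had 105 and 47.8 in the lab calcicole, against 293 and 336 in the wild line (−2.10 ± 0.39; adjusted p = 0.0229), and EXPB1 differed by −1.16. The endoglucanase GH9B8 had 58.7 and 41.0 in the lab calcicole, against 305 and 251 in the wild line (−2.43 ± 0.35; adjusted p = 0.0108). Its lines did not overlap, but the adjusted p lay between 0.0552 and 0.0903 when either lab calcicole array or the wild array at 12.5 mM was left out. Of 4 xyloglucan endotransglucosylases none was called. In a list of 19 wall-loosening and endoglucanase genes, chosen after values were seen, 5 were called lower, against the same 4.82%, and none higher. The list holds the 9 expansins, the 4 xyloglucan endotransglucosylases and GH9B8 again, so only its calls of GH9B13 and GH9B7 are new. Its median was −0.84, and GH9B13 had 34.6 and 37.8 in the lab calcicole, against 120 and 210 in the wild line (−2.06 ± 0.49; adjusted p = 0.0442).

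Calls among the UGT glycosyltransferases, cytochrome P450 genes and glutathione transferases ran in 1 direction within each family. Of 20 UGT glycosyltransferases tested, which attach sugars to small molecules, 4 were called higher, where 4.54% of all probe sets were, and none lower, and the family median was 0.24. Beside UGT78D1 these were UGT72E1, which glucosylates coniferyl aldehyde, with 621 and 489 in the lab calcicole, against 154 and 70.4 in the wild line (2.37 ± 0.46; adjusted p = 0.0262), UGT84A3, which acts on hydroxycinnamic acids (1.87 ± 0.25; adjusted p = 0.00932), and UGT80B1, a sterol glucosyltransferase (0.99 ± 0.21; adjusted p = 0.0339). Of 10 cytochrome P450 genes, all but CYP78A9 named CYP71B, the median was 0.22. Of these genes 3 were called higher, where 4.54% of all probe sets were, and none lower. They were CYP71B24, CYP71B23 and CYP71B6 (1.06), whose sequences are related. Of 8 glutathione transferases, which join glutathione to toxic or oxidised compounds, 3 were called lower, where 4.82% of all probe sets were, and none higher, with a median of −0.55. GSTU26 had 15.9 and 17.3 in the lab calcicole, against 95.4 and 92.8 in the wild line (−2.34 ± 0.23; adjusted p = 0.00339), and GSTU22 and GSTU18 differed by −1.76 and −1.39.

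**Figure D3:**
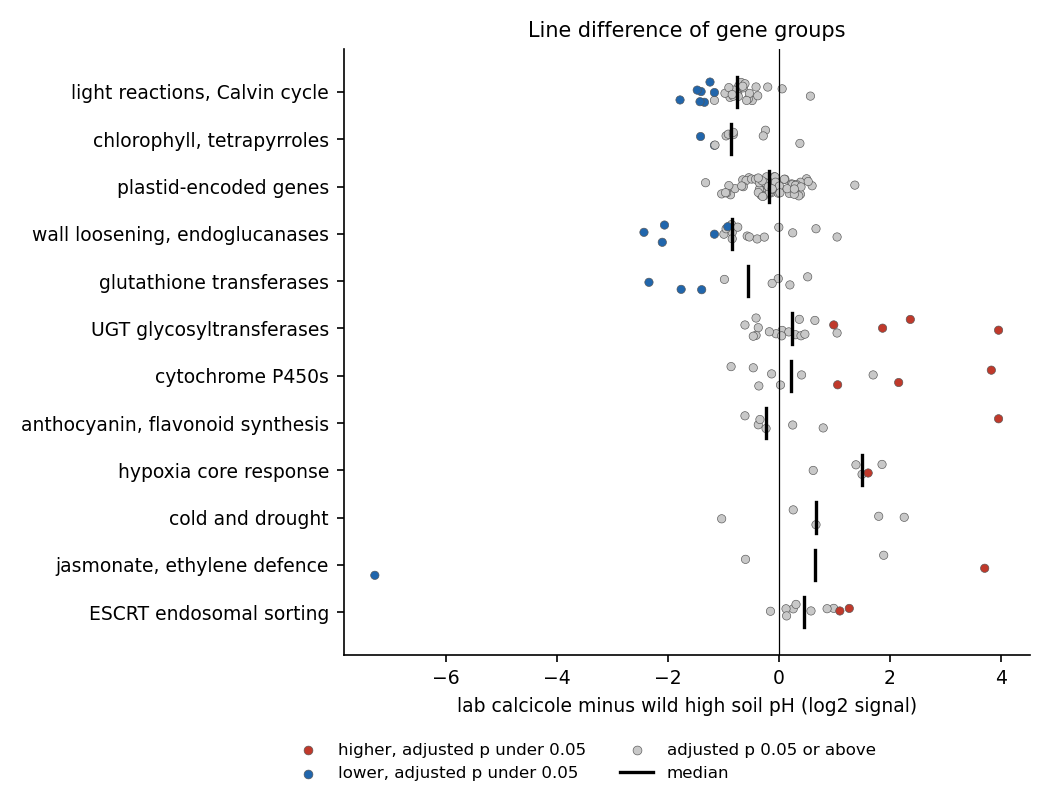
Difference between the lab calcicole and the wild high-pH ecotype, in log2 signal, for the members of 12 gene groups; each point is a probe set, coloured by its call, and black bars are medians. The photosynthesis, chlorophyll, wall and glutathione transferase groups have medians below 0 and called members only on the lower side, while the UGT and P450 groups have called members only on the higher side.

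Of the 4 tested of 21 jasmonate and ethylene defence genes, THI2.2 was called lower and PDF1.2b higher, where 4.82% and 4.54% of all probe sets were. PDF1.2b, a plant defensin whose probe set can also read related sequences, had 411 and 42.3 in the lab calcicole, against 12.8 and 4.62 in the wild line. The lab calcicole was above the wild line at each dose (3.71 ± 0.52; adjusted p = 0.0105, or 0.0577 without the lab calcicole array at 1 mM). PDF1.2, a standard marker of that defence route, had 225 and 4.23 in the lab calcicole, against 7.16 and 9.06 in the wild line, so its excess lay in the 1 mM array alone and it was not called (adjusted p = 0.269). PYK10, a root and seedling beta-glucosidase and the only 1 of 14 root markers tested, had 49.2 and 203 in the lab calcicole, against 132 and 179 in the wild line, with overlap and no call. Neither of the 2 salicylic acid defence genes tested, of 20, was called.

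None of 4 iron genes tested, of 32, and neither of 2 calcium transport and storage genes, of 20, passed the test. With 9.36% of all probe sets called, so few genes cannot show a share below that background. PYE, an iron-deficiency regulator, had 64.4 and 101 in the lab calcicole, against 116 and 128 in the wild line (−0.58 ± 0.22; adjusted p = 0.126). AT1G47400 had 35.7 and 670 in the lab calcicole, against 104 and 323 in the wild line, higher at 12.5 mM and lower at 1 mM. Outside those lists, bHLH104, LPR2 and MTP11 were chosen for their symbol among the calls after values were seen. Their calls therefore do not show how often such genes differed. The gene bHLH104, another regulator of the iron-deficiency response, had 145 and 137 in the lab calcicole, against 72.0 and 61.3 in the wild line (1.06 ± 0.25, limma adjusted p = 0.0415). LPR2, an oxidase of the root response to low phosphate, was also called higher (1.00). MTP11, a manganese transporter, was called lower (−1.02). None of the 13 phosphate starvation genes and none of the 10 flower and seed markers could be tested.

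In the remaining lists, 1 of 5 members tested of a hypoxia list of 12 was called higher, AT4G20830. It had 424 and 247 in the lab calcicole, against 133 and 81.7 in the wild line (1.61 ± 0.20; adjusted p = 0.00702). Its change from 1 to 12.5 mM was −0.78 in the lab calcicole and −0.69 in the wild line, against list medians of 2.71 and 2.35. Its place in the list was not checked, and its call is not read as that of a hypoxia gene. The median of the 5 was 1.5, and all 5 were positive. Of 2 flowering-time genes tested, of 17, GI, a clock-linked promoter of flowering, was called higher, with 299 and 312 in the lab calcicole, against 167 and 135 in the wild line (1.02 ± 0.24; adjusted p = 0.041). No cold and drought gene of 5 tested, of 16, was called, although the dehydrin LTI30 had 472 and 2250 in the lab calcicole, against 278 and 165 in the wild line (2.26 ± 0.59; adjusted p = 0.054). IAA29, an auxin-response repressor, was called lower (−1.68 ± 0.24; adjusted p = 0.0111), as were ARR15, a cytokinin response regulator (−1.22), and STOMAGEN, a peptide that raises stomatal density (−1.38). ARR15 and STOMAGEN were chosen for their symbol among the calls after values were seen. The 5 WRKY factors, 8 AGAMOUS-like factors and 5 calmodulins or calmodulin-like sensors tested gave no call. GLR2.7 was the only call among 5 glutamate receptor-like and cyclic nucleotide-gated channels, and IAA29 the only one among 4 auxin-responsive genes. With 9.36% of all probe sets called, 1 call in a list or family this small does not stand apart from that share.

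Of 7 anthocyanin and flavonoid genes tested, of 17, UGT78D1 was called higher and the others lay between −0.61 and 0.80. Of 3 glucosinolate genes tested, of 27, AT2G25450 was called lower, and all 3 were negative. Against the 9.36% of all probe sets called, 1 call in lists of this size does not stand apart. The senescence list gave no call among 2 tested, of 7, the housekeeping list none among 2, of 8, and the proton and aluminium list none for its 1 gene, of 7. The senescence gene SAG29 had 34.7 and 160 in the lab calcicole, against 251 and 703 in the wild line (−2.44 ± 0.81; adjusted p = 0.0987). The lab calcicole array was the lower at each dose. The 1 NAC factor tested was not called. No member of the families of MYB, ethylene response, calcium-dependent kinase, CBL and CIPK, aquaporin, nitrate and sulfate transport, heat shock and ribosomal protein genes, or of the mitochondrion-encoded genes as sought here, could be tested.

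The lines were also compared in how each changed between 1 and 12.5 mM CaCl2. No probe set passed the test of a difference in that change (0.0%), with the smallest adjusted p at 0.147. At an unadjusted p under 0.05 there were 568, fewer than the 682 that 13647 tests without any difference would give on average. The single residual degree of freedom of this test is the difference in CaCl2 change between the 2 calcifuge-class lines. Any real difference between those lines counts as error, so a low count does not show that the responses were alike. In single arrays, 452 probe sets (3.31%) were at least 2-fold higher and 570 (4.18%) at least 2-fold lower at 12.5 mM in the lab calcicole, against 139 (1.02%) and 423 (3.10%) in the wild high-pH ecotype. The standard deviation of the change across probe sets was 0.59 in the lab calcicole and 0.47 in the wild line. Of the probe sets 2-fold lower, 164 were shared, which is 28.8% of the lab calcicole's and 38.8% of the wild line's. Of those 2-fold higher, 47 were shared, 10.4% of the lab calcicole's and 33.8% of the wild line's.

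The genes with the smallest p of a response difference had larger changes between the lab calcicole arrays than between the wild ones. GH3.3, which joins auxin to amino acids, had 252 at 1 mM and 10.6 at 12.5 mM in the lab calcicole, against 20.3 and 58.4 in the wild line (response difference −5.69 ± 0.47; adjusted p = 0.147). CYP71B22 had 210 and 11.9 in the lab calcicole, against 5.96 and 31.5 in the wild line (−5.89 ± 0.51; adjusted p = 0.147). In both, the lab calcicole was above the wild line at 1 mM and below it at 12.5 mM. In the other direction AT2G43620 had 33.5 and 335 in the lab calcicole, against 39.8 and 32.7 in the wild line (3.50 ± 0.47; adjusted p = 0.345), and AT3G57010 had 3.18 and 90.3, against 43.9 and 69.1 (3.40 ± 0.53). With 1 array per line and dose and 1 residual degree of freedom, these remain values of single arrays.

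**Figure D4:**
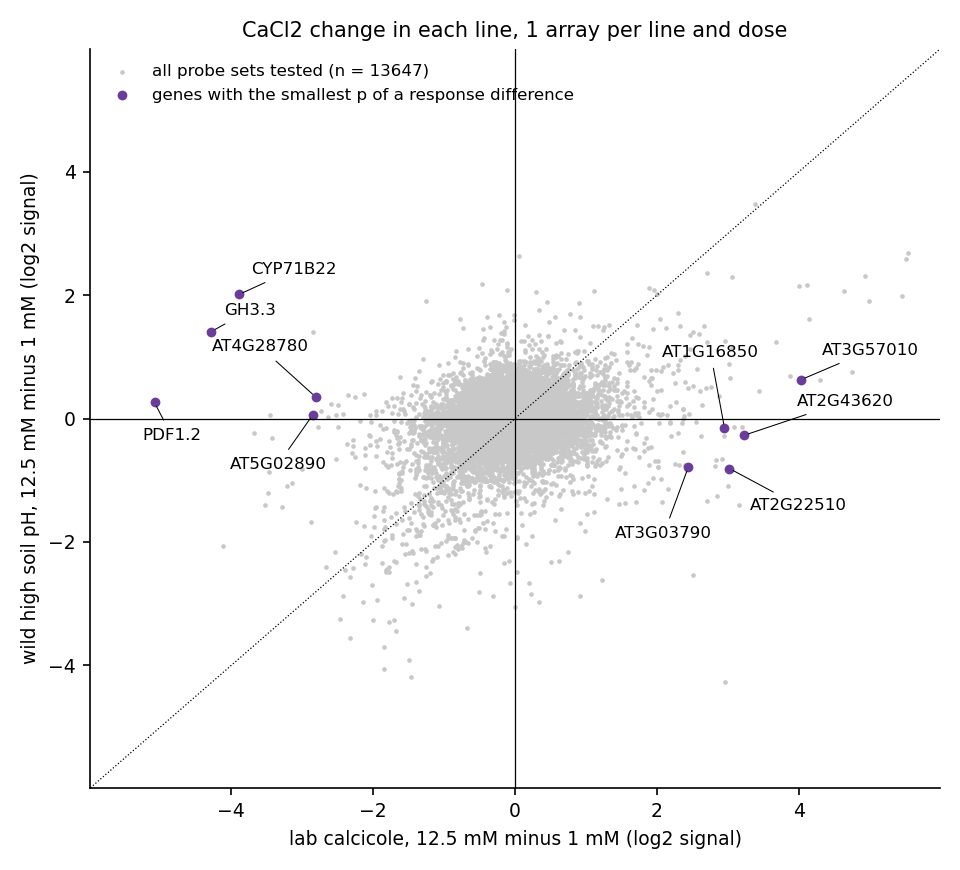
Change in log2 signal from 1 to 12.5 mM CaCl2 in the lab calcicole (horizontal) and in the wild high-pH ecotype (vertical) for the 13647 probe sets tested, with 1 array per line and dose; the dotted line marks equal change. Purple points are the 5 genes each way with the smallest p of a response difference, of which GH3.3, CYP71B22 and PDF1.2 lie far to the left and AT3G57010 and AT2G43620 far to the right.

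The difference of this pair was then set against that of the other lab and wild pair, lab calcifuge minus wild low-pH ecotype. The pairs share no array, but they share the fit and its error for each probe set. A probe set with a small error is thus more readily called in both. Of the 1277 calls, 992 (77.7%) had the same sign in the calcifuge-class pair, against 64.1% of all probe sets tested, and the median of the 619 higher calls was 1.39 here and 0.48 there. In the calcifuge-class pair 336 probe sets (2.46%) were called, 219 higher (1.6%) and 117 lower (0.857%). The calls shared with the same sign numbered 101, or 7.91% of this pair's calls and 30.1% of the other's, and 17 were called in opposite directions. AT2G01090 is a shared example, with 142 and 170 in the lab calcicole, against 18 and 4.61 in the wild high-pH ecotype, and with 237 and 231 in the lab calcifuge, against 14.2 and 8.74 in the wild low-pH ecotype. Its difference minus that of the other pair did not pass the test (−0.40 ± 0.57; adjusted p = 0.80).

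A direct test of the 2 pairs against each other called 158 probe sets (1.16%), 51 of them higher (0.374%) and 107 lower (0.784%) in the calcicole-class pair. Leaving out any of the 8 arrays lowered that count, to 12 without the wild low-pH ecotype at 12.5 mM and to 74 without the lab calcifuge at 1 mM at the extremes. AT3G48640 had 1300 and 293 in the lab calcicole, against 243 and 28.7 in the wild high-pH ecotype, and 9.28 and 2.73 in the lab calcifuge, against 753 and 327 in the wild low-pH ecotype. The differences thus ran in opposite directions, 2.82 and −5.99 (difference between pairs 8.81 ± 0.61; adjusted p = 0.00358). Its 2.82 had an adjusted p of 0.0131, and of 0.0745 to 0.0809 without either lab calcicole array or the wild high-pH array at 12.5 mM. AT4G21650 was the reverse, with 47.3 and 48.3 in the lab calcicole, against 325 and 272 in the wild high-pH ecotype, and 29.9 and 61.4 in the lab calcifuge, against 2.21 and 0.567 in the wild low-pH ecotype (−6.16 ± 0.51; adjusted p = 0.00745). For UGT78D1, CYP71B24, GLR2.7 and AT4G20480 the calcifuge-class pair differed by at most 0.37, and the wild high-pH ecotype was the only line of the 4 with signals at or under 15.6.

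**Figure D5:**
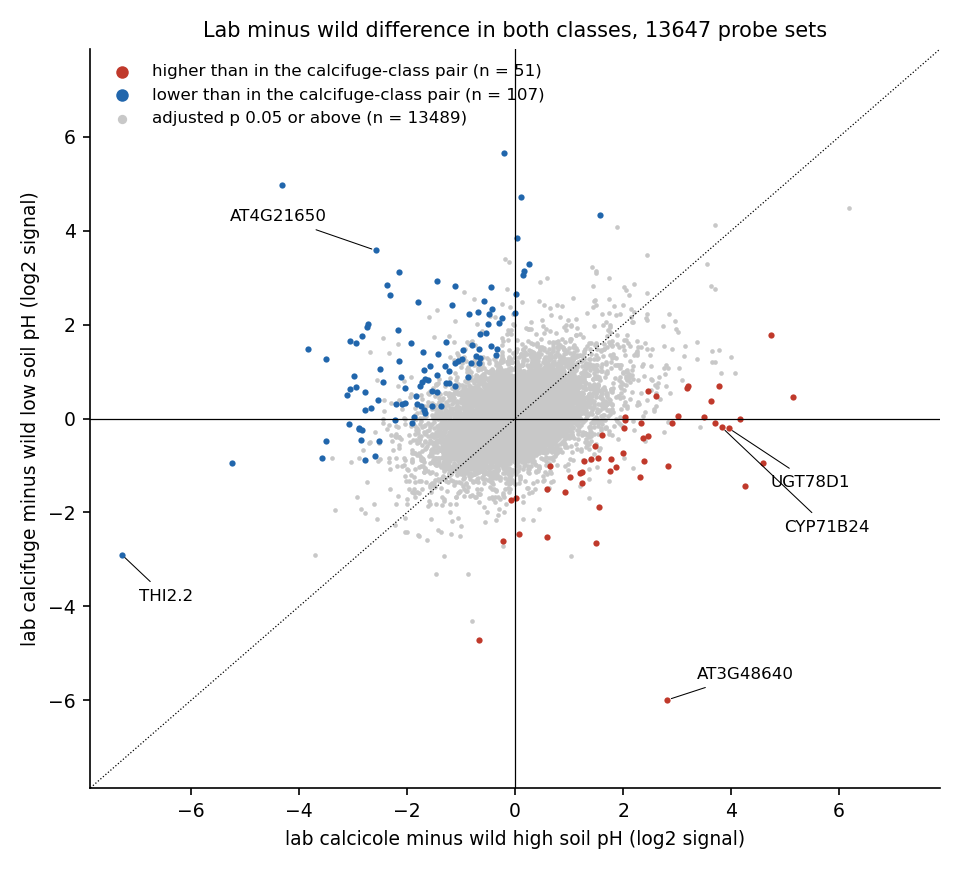
Lab minus wild difference in log2 signal in the calcicole-class pair (horizontal) and in the calcifuge-class pair (vertical) for the 13647 probe sets tested; the dotted line marks equal differences. Red and blue mark the 51 and 107 probe sets whose differences departed from each other in the test, and most grey points lie near the centre.

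The place of the other lines was counted with no test. Among the 658 probe sets lower in the lab calcicole, both the lab calcifuge and the wild low-pH ecotype were nearer the wild high-pH ecotype in 318 (48.3%), as in AT5G35480 and AT1G23130. Among the 619 higher ones this held for 219 (35.4%), and it held for 38.2% of all probe sets tested. Over all 1277 calls, both other lines were nearer the lab calcicole in 174 (13.6%), against 20.3% of all tested. In 516 (40.4%, against 30.6% of all tested) the lab calcifuge was nearer the lab calcicole and the wild low-pH ecotype nearer the wild high-pH ecotype. Called genes were spread over the nuclear chromosomes, at 7.42% of the named genes tested on chromosome 2 to 9.80% on chromosome 1.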

How the data were processed

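The deposited values are MAS5 signal intensities per probe set, per the submitters' processing notes, whose version is not given in the sources used here. A trimmed mean (2% off each end) of 100.0 was found on every array. Here the 22746 gene probe sets were taken as log2(signal + 2.507), the pseudocount being the 10th percentile, and the lowest 40% by mean were left out. limma 3.58.1 in R 4.3.3 fitted line and dose additively over 8 arrays (3 residual degrees of freedom), and the response difference with separate dose terms (1 residual degree of freedom). P-values were Benjamini-Hochberg adjusted over 13647 probe sets, and ± is the standard error. The tests were tried on simulated data. The members and lists were chosen with earlier results of these data known.

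Genes were named by fixed counts among probe sets that pair with 1 gene: the 12 largest differences each way, the 10 largest with all 4 signals at or above 25, the 5 smallest p each way for the response, the 5 largest departures from the calcifuge-class pair each way among probe sets called in both tests, and members of 16 lists and 21 families. Genes with a symbol among the calls and 10 further lists were chosen after their values were seen. Of 22746 probe sets, 13513 pair with 1 gene, 503 with several, and 8730 are unnamed here. Of 259 list members, 42 could be tested. The number of arrays limits the precision, and sequence differences between lines under the probes were not tested.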

Additional observations from a re-analysis of the deposited data

Results flagged for a closer look

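The lab minus wild difference was not the same in the calcicole-class and calcifuge-class pairs for 114 probe sets that were called both between the lab calcicole and the wild high-pH ecotype and in limma's test of the 2 pairs against each other. Over all probe sets tested, that test of the pairs called 158 (1.16%). It contains the line difference itself, so probe sets called for a line difference are favoured in it.

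Of the 5 genes with the largest excess in the calcicole-class pair, AT3G48640 departed by 8.81 on the log2 scale. UGT78D1 departed by 4.18, CYP71B24 by 4.02, AT4G20480 by 3.46 and GLR2.7 by 3.27. In the other direction the departure was −6.16 for AT4G21650, −5.27 for AT4G15390, −4.60 for AT1G71020, −4.38 for THI2.2 and −4.05 for AT3G44630. AT4G15390 had 11.1 and 36.0 in the lab calcicole, against 106 and 93.1 in the wild high-pH ecotype, and 272 and 253 in the lab calcifuge, against 38.5 and 20.3 in the wild low-pH ecotype. AT3G44630 had 7.75 and 7.58 in the lab calcicole, against 42.1 and 44.3 in the wild high-pH ecotype, and 115 and 136 in the lab calcifuge, against 35.8 and 28.8 in the wild low-pH ecotype. THI2.2 was lower in the lab line of both pairs, by −7.28 in the calcicole class and −2.90 in the calcifuge class. Over the alternatives, AT3G48640 and AT3G44630 kept the call of this departure in all, and the other 8 lost it in at least 1. Among those 8, the call was kept in from 7 of 15 alternatives for GLR2.7 to 14 of 15 for AT4G21650.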

How the results depend on the processing

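No paired analysis was possible because the groups share only replicate number 1, so no block of replicate numbers could be fitted; the lines were paired by dose through the dose term. The count of 1277 line differences was 242 with no filter on low signals, 177 at an adjusted p under 0.01 and 618 with no dose term, and ranged from 106 to 579 when 1 of the 4 arrays was left out. It lay between 941 and 1575 under the other alternatives, among them the 4 arrays alone (1575, of which 1151 were shared). Of the 242 calls with no filter, only 150 were shared with the 1277. The 158 departures from the calcifuge-class pair were 13 with no filter, 8 at an adjusted p under 0.01 and 12 to 74 with 1 array left out. The cause was not tested. The response difference gave no call by limma under any of its 9 alternatives, although the stricter adjusted p under 0.01 could add none. Of 628 values of the 40 genes named by size, 569 kept their call, 59 lost it and 0 reversed; of 154 values of the 10 genes named for their departure from the other pair, 111 kept it and 43 lost it. Signals near the pseudocount limit the folds of low genes.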

Other observations

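Other groups were drawn up from gene symbols after their values were seen, and are given as counts without a test. Over all probe sets tested, 4.54% were called higher and 4.82% lower, and counts of 1 in groups this small do not stand apart from those shares. Of 10 genes of ESCRT endosomal sorting, which sends membrane proteins to the vacuole, 2 were called higher in the lab calcicole than in the wild high-pH ecotype, VPS22 (1.27) and VPS20.1 (1.1), and the median was 0.45. Of 9 RNA polymerase subunits only NRPE7, a subunit of the polymerase of RNA-directed DNA methylation, was called, with 79.7 and 90.5 in the lab calcicole, against 20.3 and 18.8 in the wild line (1.99 ± 0.20; adjusted p = 0.00355 by limma). The group's median was 0.69. Of 9 beta-glucosidases BGLU40 (−1.82) and BGLU47 (−1.72) were called lower, with a median of −0.05. Of 5 methionine sulfoxide reductases, which repair oxidised proteins, MSRB6 was called lower (−2.38). Of 8 SWEET sugar transporters SWEET17, a vacuolar fructose carrier, was called lower (−1.37), with 196 and 179 in the lab calcicole, against 429 and 556 in the wild line. Of 6 genes of PYK10 and endoplasmic reticulum bodies, NAI2, which the bodies need to form, was called lower (−1.45).

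In mitochondrial amino acid breakdown, DELTA-OAT, the ornithine aminotransferase, had 202 and 280 in the lab calcicole, against 65.6 and 68.2 in the wild line (1.79 ± 0.21; adjusted p = 0.00562 by limma). With ALDH6B2 higher and ETFBETA lower, 3 of the group's 9 genes were called, where 9.36% of all probe sets were.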
